A study of Rattus norvegicus with 9 samples.

Results

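Metalloproteinases are zinc-dependent enzymes that cut matrix proteins and free signalling molecules from cell surfaces, and they were followed here with their inhibitors in 9 fetal lungs of Sprague-Dawley rats. The genes were chosen by symbol: matrix metalloproteinases (Mmp), tissue inhibitors of metalloproteinases (Timp), membrane-bound ADAMs, secreted ADAMTSs and ADAMTS-like proteins, without Mmp8 and Mmp9, and with a mean of at least 0.5 CPM (library-size-normalised counts, on TMM-scaled library totals) over the 9 libraries. This gave 46 of the 17465 genes in the table (12 Mmp, 4 Timp, 13 Adam, 14 Adamts and 3 Adamtsl), out of 64 genes that matched the symbols. The level rule was close for Adamtsl5, kept at a mean of 0.553 CPM, and for Mmp24, left out at 0.435 CPM. The 18 genes left out included 7 that were at 0 in all 9 libraries.

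There were 3 groups, each of 3 libraries. Control lungs and hypoplastic lungs received no treatment, and a further group of hypoplastic lungs was treated with AFSC-EVs, extracellular vesicles released by amniotic fluid stem cells. The series title attributes the hypoplasia, an underdevelopment of the lung, to oligohydramnios, a lack of amniotic fluid. All lungs were of 1 strain, and no allele or transgene is named. Fetal age, litter, vesicle dose, route and time, and whether lungs of 1 group came from separate litters, are details that the sources do not state. The p-values therefore measure the spread between these lungs, whatever its source.

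In a developing lung, metalloproteinases open the matrix in front of growing airways and vessels, and mesenchymal cells make many of them. Mmps are made as inactive proenzymes, and Timps block the active site by binding to it. ADAMs act mainly as sheddases that release growth factors, cytokines and receptor ectodomains, while ADAMTSs are secreted into the matrix, where they trim proteoglycans and procollagens. ADAMTS-like proteins share the matrix-binding repeats of ADAMTSs but have no protease domain.

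Library totals ran from 56922779 to 88243188 estimated counts, and lung markers were present in every library: the summed level of 9 alveolar epithelial genes was 2220 to 5130 CPM, and that of 6 endothelial genes was 834 to 1150 CPM. The alveolar epithelial sum was 2910 to 5130 CPM in control, 2220 to 2630 CPM in hypoplastic and 2790 to 3430 CPM in treated lungs, so that the hypoplastic range lay below both others. Of its 9 genes, 6 were lower in hypoplastic than in control lungs at an unadjusted p under 0.05 and 0 were called, with a median log2 fold change of -0.84. The part of this shift in the differences reported for the metalloproteinases was not tested. Several libraries stood apart on markers of other cells. Hypoplastic libraries 1 and 2 held 139 and 72.0 CPM of 7 heart muscle genes, against 2.55 to 10.1 CPM in the other 7 libraries. Hypoplastic library 2 held 14900 CPM of 7 fibroblast genes, against 1890 to 6310 CPM elsewhere, and 342 CPM of 10 macrophage genes, against 35.7 to 282 CPM elsewhere. Hypoplastic library 1 held 1140 CPM of 8 cartilage genes, against 133 to 558 CPM elsewhere. The neutrophil list of 10 genes, which includes Mmp8 and Mmp9, summed to 20.4 to 29.2 CPM in control lungs, 113 to 207 CPM in hypoplastic lungs and 46.9 to 109 CPM in treated lungs, so that the control range lay below both others. Control library 2 had the lowest fibroblast, macrophage and cartilage sums and the highest alveolar epithelial sum (5130 CPM). No list had a marker at 0 in all libraries. In whole lungs, fewer cells of a type and less RNA per cell cannot be told apart.

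**Figure D1:**
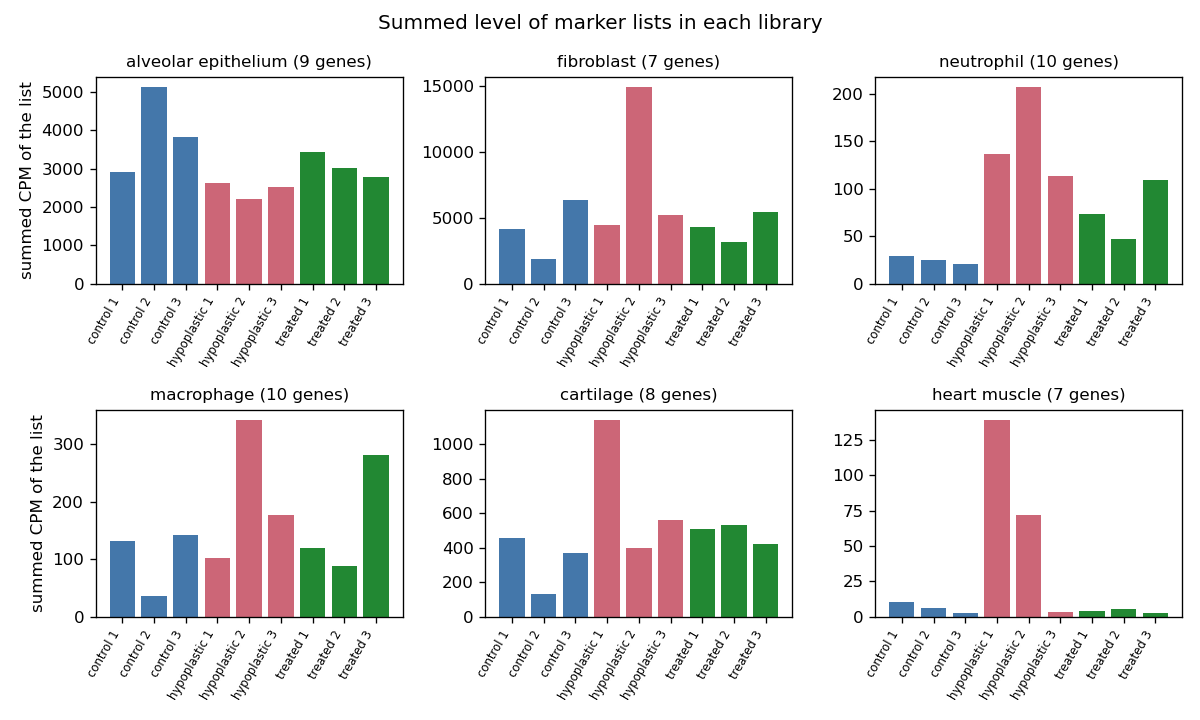
Summed CPM of 6 marker lists (bars) in each of the 9 libraries, coloured by group, each axis starting at 0. The fibroblast sum of hypoplastic library 2 (14900 CPM) and the heart muscle sums of hypoplastic libraries 1 and 2 (139 and 72.0 CPM) stand above those of all other libraries.

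The first comparison, of hypoplastic with control lungs, asks how the hypoplasia model altered this gene group. The genes with the smallest p were Adamts4, Timp4, Mmp3, Mmp13 and Timp1, each higher in hypoplastic lungs, but edgeR called 0 of 46 members at an adjusted p under 0.05. Over all 12966 genes tested, 0.00771% were called, which is 1 gene. At an unadjusted p under 0.05 there were 10 members, 10 higher and 0 lower, which is 21.7% of the members beside 12.4% of all genes in either direction (6.67% higher and 5.69% lower). Without hypoplastic library 2, 7 of 46 members were at this threshold, 4 higher and 3 lower, beside 8.99% of all genes in that fit. Of the 10, 4 (Mmp3, Mmp13, Adam28 and Adamtsl5) had a control mean under 0.5 CPM and entered the group only through higher levels elsewhere. Among the 42 members with a control mean of at least 0.5 CPM, 6 (14.3%) passed the unadjusted threshold. The median log2 fold change was 0.07 over the 46 members and 0.01 over all genes tested, with 28 members above 0, 18 below and a range of -0.44 to 7.41.

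The library values of hypoplastic and control lungs did not overlap for 6 members that were higher (Adam23, Adam28, Adamts12, Adamts4, Timp1 and Timp4) and 1 that was lower (Mmp11). These are 13% and 2.17% of the members, beside 7.67% and 9.05% of all genes tested. Adam28 had a control mean under 0.5 CPM. Among the 42 members with a control mean of at least 0.5 CPM, 5 (11.9%) were higher and 1 (2.38%) was lower in this way. DESeq2 called 1 of 46 members, Mmp3, among 207 genes in all (1.6% of genes tested), and limma voom called 0 members.

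**Figure D2:**
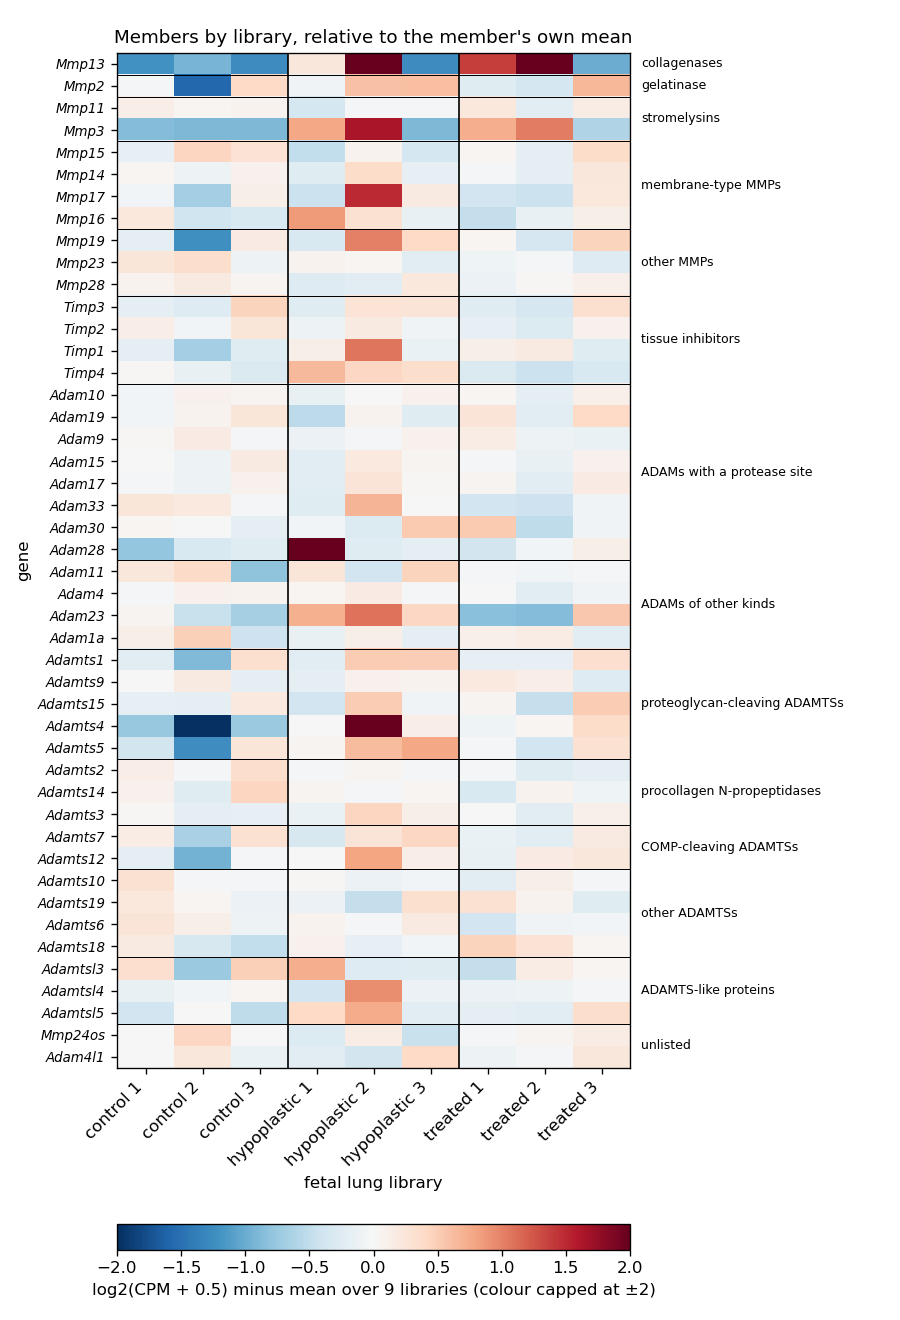
Level of each of the 46 members (rows, grouped by role) in each library (columns) as log2(CPM + 0.5) minus the member's mean over 9 libraries, with the colour capped at 2 in either direction. Hypoplastic library 2 holds the highest value of 17 of the 46 members and treated library 2 the lowest of 12.

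Single lungs held many of the extremes. Hypoplastic library 2 had the highest value of 17 members, where 16.1% of all genes tested peaked in that library. Treated library 2 had the lowest value of 12 members, beside 7.43% of all genes. Control library 2 had the lowest value of 11 members, a share near the 22% of all genes. The pooled SD of log2(CPM + 0.5) within groups had a median of 0.296 over the members and 0.205 over all genes tested. It was smallest for Adam4, Adam10 and Adam9 (0.0969, 0.115 and 0.123) and largest for Mmp13, Adamts4 and Mmp3 (1.32, 1.09 and 0.899).

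Mmp13, the collagenase that cuts fibrillar collagen, and Mmp3, the stromelysin that cuts proteoglycans and activates other Mmps, were the members with the largest fitted change. Mmp3 was at 0.0153, 0 and 0 CPM in the control lungs, which is 1 count in all. It was at 1.10, 2.42 and 0 CPM in the hypoplastic lungs and at 1.05, 1.41 and 0.118 CPM in the treated lungs. Hypoplastic library 3 was thus at 0 like control libraries 2 and 3, so those 2 groups overlapped, while all treated libraries lay above all control libraries. The ratio of pooled hypoplastic to control CPM rested on 220 against 1 counts and was 236 (95% interval 41.9 to 9350, exact binomial, counting error only). The fitted log2 fold change of 7.41 (SE 2.24) depends on the prior count, and edgeR gave an adjusted p of 0.323. DESeq2 gave an adjusted p of 0.0376, and the highest value over the 17 alternatives in which Mmp3 was tested was 0.762.

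Mmp13 followed the same libraries. It was at 0.0153, 0.125 and 0 CPM in control lungs, at 0.900, 4.49 and 0 CPM in hypoplastic lungs and at 2.61, 4.25 and 0.103 CPM in treated lungs. As with Mmp3, hypoplastic library 3 was at 0, treated library 3 was near the control level, and the other 4 libraries of these groups were higher. By Xist and Ddx3y levels, hypoplastic library 3 and treated library 3 were male and the 4 higher libraries female. Of the control lungs, libraries 1 and 2 were male, and the female library 3 was at 0 for both genes. The pooled ratio of hypoplastic to control lungs was 44.7 (334 against 8 counts, 95% interval 22.4 to 104), which the fit put at 5.39 on the log2 scale (SE 1.86, edgeR adjusted p 0.328). Without hypoplastic library 2 the log2 fold change was 3.47, and without control library 2 it was 7.65. The libraries in which both genes were at or near control level, hypoplastic library 3 and treated library 3, held 113 and 109 CPM of the neutrophil list. The former was below the other hypoplastic libraries (136 and 207 CPM), and the latter was above the other treated libraries (73.5 and 46.9 CPM). The sum of hypoplastic library 2 was mostly Lcn2 (131 CPM). S100a8, S100a9, Camp, Ngp and Mmp8 were higher in hypoplastic library 3 than in hypoplastic library 2, while Lcn2, Mmp9, Mpo, Elane and Ltf were lower. The part of other cell types in the levels of Mmp3 and Mmp13 was not tested. Sex entered only as a covariate in 1 alternative, and its own effect on these genes was not tested. With that covariate, Mmp13 in treated against control lungs was at 4.82 on the log2 scale, beside 5.77 without it.

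In the RefSeq gene table of the GRCr8 assembly, Mmp3 and Mmp13 are members of a run of neighbouring Mmp genes on chromosome 8, in the order Mmp13, Mmp12, Mmp3, Mmp1, Mmp10, Mmp27, Mmp20 and Mmp7 (Mmp8, which lies between Mmp10 and Mmp27, was excluded by the rule, and Mmp1b, beside Mmp3, was not analysed here). Of the genes listed, Mmp13 and Mmp3 were the only ones with a mean of at least 0.5 CPM here, while the excluded Mmp8 was at a mean of 2.33 CPM. Their promoters are shown because both carry, close together, letters known as binding sequences of AP-1, a transcription factor of the Fos and Jun families, and a TATA box. The 120 bases before the annotated start site are given from RefSeq, build GRCr8, 5′ to 3′ on the gene strand. Capitals mark 2 motifs. For AP-1 the letters searched were TGANTCA, which read the same on both strands. The TATA box was searched on the gene strand only, as TATAAA, and the motifs cannot overlap each other. Mmp13, Mmp3, Mmp12, Mmp10 and Mmp7 lie on the plus strand at chr8:12782709-12782828, chr8:12925161-12925280, chr8:12866532-12866651, chr8:12974587-12974706 and chr8:13132923-13133042. Timp1 (minus strand, chrX:3771123-3771242) and Adamts4 (plus strand, chr13:86202891-86203010), which were also higher in hypoplastic lungs, are given for comparison. Neither holds the exact letters searched in this stretch. Variants of the AP-1 letters were not searched, and the Timp1 stretch holds tgagtaa, which differs from TGANTCA by a single base. The lack of a match in Timp1 is therefore no sign that it lacks an AP-1 site.
Mmp13: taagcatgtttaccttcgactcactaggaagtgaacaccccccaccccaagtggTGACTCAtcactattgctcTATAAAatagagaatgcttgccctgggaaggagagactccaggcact
Mmp3: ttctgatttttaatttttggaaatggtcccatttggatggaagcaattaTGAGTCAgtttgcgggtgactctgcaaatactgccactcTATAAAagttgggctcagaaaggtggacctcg
Mmp12: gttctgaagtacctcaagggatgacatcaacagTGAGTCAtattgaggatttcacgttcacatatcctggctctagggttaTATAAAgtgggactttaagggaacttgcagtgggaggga
Mmp10: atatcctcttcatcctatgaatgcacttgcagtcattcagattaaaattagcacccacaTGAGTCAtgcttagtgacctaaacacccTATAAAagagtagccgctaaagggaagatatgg
Mmp7: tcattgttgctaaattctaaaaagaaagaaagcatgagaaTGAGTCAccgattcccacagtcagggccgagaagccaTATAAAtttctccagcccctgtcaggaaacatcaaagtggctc
Timp1: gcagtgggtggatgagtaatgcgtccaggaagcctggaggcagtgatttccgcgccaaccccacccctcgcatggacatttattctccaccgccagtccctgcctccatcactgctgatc
Adamts4: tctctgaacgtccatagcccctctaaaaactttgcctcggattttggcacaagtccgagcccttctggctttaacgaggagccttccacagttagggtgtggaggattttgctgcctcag

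Over the 250 bases before the start, 7 of the 8 genes of the run held both sequences, and Mmp27 held neither. Both occurred in 205 of 27457 promoters of the build (0.747%), and in 37 of 10500 promoters of genes tested here (0.352%). Of the 46 members, 32 had a promoter sequence in the table, and 2 of these, Mmp3 and Mmp13, held both. The AP-1 letters alone stood in 3 member promoters (Adam19, Mmp13 and Mmp3), which is 9.38% beside 4.6% of promoters of genes tested. A match describes the letters only. The genes of the run did not share 1 level pattern: Mmp10 had 1 count in control lungs, 0 in hypoplastic lungs and 59 in treated lungs, 53 of them in treated library 2, and Mmp1 and Mmp27 were at 0 in every library. Mmp12, the macrophage elastase, was at a mean of 0.371 CPM with its highest value, 1.54 CPM, in hypoplastic library 2, the library with the highest macrophage sum.

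Mmp2, the gelatinase that also cuts basement membrane collagen, and Mmp14, the membrane-bound protease that activates the proenzyme of Mmp2 together with Timp2, did not differ beyond the spread between lungs. Mmp2 was at 188, 64.6 and 255 CPM in control lungs, at 184, 290 and 294 CPM in hypoplastic lungs and at 162, 151 and 304 CPM in treated lungs. Hypoplastic exceeded control lungs by 0.59 on the log2 scale (SE 0.447, edgeR adjusted p 0.611), and by 0.21 without control library 2, the lowest of the 9, or 1.01 without control library 3. Mmp14 was at 155, 141 and 161 CPM in control, at 127, 194 and 135 CPM in hypoplastic and at 149, 133 and 177 CPM in treated lungs, and the direction of its difference changed with the setting.

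The other Mmps gave no call in hypoplastic against control lungs. Mmp15, a membrane-type protease, was at 169, 254 and 230 CPM in control and at 134, 198 and 147 CPM in hypoplastic lungs, with 1 overlapping hypoplastic library, at -0.44 on the log2 scale (SE 0.205, edgeR adjusted p 0.417). The 4 membrane-type members had log2 fold changes of -0.44 to 0.83. The top of that range was Mmp17, a protease held by a lipid anchor, which was at 38.8 CPM in hypoplastic library 2 and at 8.20 to 15.6 CPM in the other 8 libraries. Mmp11, a stromelysin-type protease made by mesenchymal cells, was the member with a lower and not overlapping range: 25.2, 23.6 and 24.1 CPM in control lungs against 17.8, 22.5 and 22.6 CPM in hypoplastic lungs (log2 fold change -0.21, SE 0.149, edgeR adjusted p 0.582, and -0.11 without hypoplastic library 1). Of the remaining 3 Mmps, Mmp19 was at 12.4, 5.78 and 15.8 CPM in control and at 11.4, 29.0 and 18.8 CPM in hypoplastic lungs (log2 fold change 0.79, SE 0.407, edgeR adjusted p 0.458, and 0.40 without hypoplastic library 2 or 0.48 without control library 2). The other 2, Mmp23 and Mmp28, differed by -0.21 and -0.30 on the log2 scale.

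Among the inhibitors, Timp4 and Timp1 were higher in every hypoplastic library than in every control library, while Timp2 and Timp3 overlapped. Timp4, the inhibitor known for its high level in heart muscle, was at 0.628, 0.499 and 0.407 CPM in control lungs and at 1.24, 0.980 and 0.905 CPM in hypoplastic lungs. In treated lungs it was at 0.408, 0.323 and 0.396 CPM, below every hypoplastic library. These levels rest on 27 to 81 counts per library. The log2 fold change was 1.03 (SE 0.297, unadjusted p 0.00629, edgeR adjusted p 0.317) in hypoplastic against control lungs, and it ran from 0.88 to 1.22 over the 17 alternatives in which Timp4 was tested. Hypoplastic libraries 1 and 2 held 139 and 72.0 CPM of the heart muscle markers. Hypoplastic library 3 held 3.09 CPM of them and 0.905 CPM of Timp4. The part of heart muscle in the Timp4 difference was not tested.

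Timp1, the soluble inhibitor that is induced in many injured tissues, was at 28.5, 20.0 and 27.5 CPM in control lungs, at 35.4, 68.7 and 29.5 CPM in hypoplastic lungs and at 35.1, 37.0 and 27.3 CPM in treated lungs. The hypoplastic values lay above the control values, narrowly so for hypoplastic library 3, and the treated values overlapped both. The log2 fold change against control was 0.81 (SE 0.293, unadjusted p 0.0205, edgeR adjusted p 0.350), and it was 0.36 without hypoplastic library 2. Timp3, the inhibitor bound to the matrix and the one that also blocks ADAM17 and ADAMTSs, was at 99.8, 95.5 and 156 CPM in control, at 97.2, 138 and 137 CPM in hypoplastic and at 96.9, 90.7 and 143 CPM in treated lungs. Timp2 averaged 77.5 CPM ± 7.91 (SD, n = 3), 72.3 CPM ± 8.04 (SD, n = 3) and 66.5 CPM ± 8.82 (SD, n = 3) in the same order. Their log2 fold changes in hypoplastic lungs were 0.08 and -0.10, with edgeR adjusted p of 0.908 and 0.783, and that of Timp3 changed sign without control library 1 or control library 2.

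**Figure D3:**
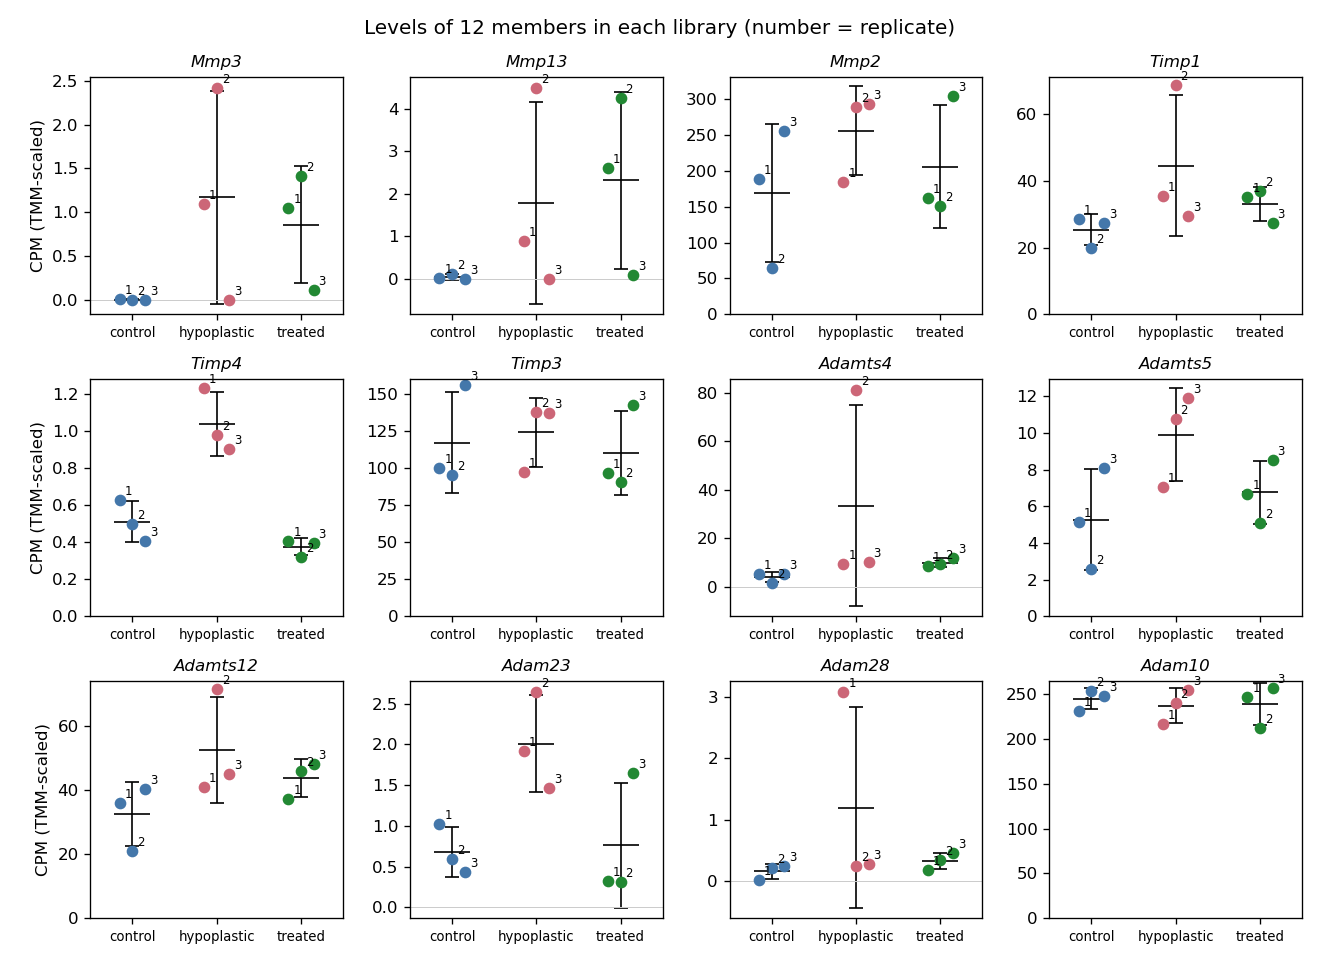
CPM of 12 members in each library (points, numbered by replicate) for the 3 groups, with the mean and SD of each group of 3 as a black bar with whiskers. Timp4 lies at 0.905 to 1.24 CPM in hypoplastic lungs, above all control and treated lungs, while hypoplastic library 2 alone carries Adamts4 to 81.1 CPM and hypoplastic library 1 alone carries Adam28 to 3.08 CPM.

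Adam10 and Adam17, both sheddases, overlapped between all groups. Adam10, which cuts Notch receptors and cadherins, was at 231, 254 and 248 CPM in control, at 216, 240 and 255 CPM in hypoplastic and at 247, 212 and 257 CPM in treated lungs (log2 fold change -0.04 in hypoplastic against control lungs, SE 0.107, edgeR adjusted p 0.890). Adam17, which releases tumour necrosis factor and ligands of the epidermal growth factor receptor, was at 58.7, 56.3 and 64.5 CPM in control, at 52.0, 72.5 and 61.4 CPM in hypoplastic and at 62.9, 51.5 and 67.9 CPM in treated lungs (log2 fold change 0.05, edgeR adjusted p 0.908). Of the 8 ADAMs with a protease site, 1 was at an unadjusted p under 0.05: Adam28, at 0.0153, 0.214 and 0.244 CPM in control and at 3.08, 0.245 and 0.272 CPM in hypoplastic lungs. Its hypoplastic range starts just above the highest control library, and the difference was carried by hypoplastic library 1, the library with the most cartilage and heart muscle markers. The log2 fold change of Adam28 was 2.94 (SE 1.10, edgeR adjusted p 0.360), and it was 0.69 without that library. The part of other tissue in it was not tested.

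Of the 4 ADAMs of other kinds, Adam23, a cell adhesion protein that lacks protease activity, was higher in hypoplastic lungs. It was at 1.03, 0.589 and 0.434 CPM in control lungs, at 1.92, 2.65 and 1.47 CPM in hypoplastic lungs and at 0.329, 0.311 and 1.64 CPM in treated lungs. The hypoplastic and control ranges did not overlap, and treated library 3 lay within the hypoplastic range (log2 fold change 1.57 against control, SE 0.605, unadjusted p 0.028, edgeR adjusted p 0.366). Adam11, of the same adhesion family, was at 2.07, 2.37 and 0.759 CPM in control and at 2.10, 1.18 and 2.48 CPM in hypoplastic lungs, and its direction changed without control library 3 or hypoplastic library 3. The rest, Adam4 and Adam1a, had log2 fold changes of 0.02 and -0.27.

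ADAMTS proteases that cut proteoglycans such as versican and aggrecan included the member with the smallest p. Adamts4 was at 5.27, 1.87 and 5.34 CPM in control lungs, at 9.36, 81.1 and 10.2 CPM in hypoplastic lungs and at 8.73, 9.53 and 12.1 CPM in treated lungs. Every hypoplastic and every treated library lay above every control library, and hypoplastic library 2 stood far above the rest. The log2 fold change in hypoplastic against control lungs was 3.002 (SE 0.810, unadjusted p 0.00437, edgeR adjusted p 0.317), and without hypoplastic library 2 it was 1.22. Adamts5 was at 5.15, 2.57 and 8.11 CPM in control and at 7.06, 10.8 and 11.9 CPM in hypoplastic lungs, with overlapping ranges, a difference of 0.90 in log2 units (SE 0.378, unadjusted p 0.0398, edgeR adjusted p 0.389). Without control library 2 it was 0.57, and without control library 3 it was 1.35.

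Adamts1, another of these 5 proteoglycan-cleaving members, was at 147, 92.7 and 213 CPM in control and at 147, 242 and 240 CPM in hypoplastic lungs (log2 fold change 0.48, SE 0.298, edgeR adjusted p 0.534). It was 0.22 without control library 2 and 0.81 without control library 3. The other 2, Adamts9 and Adamts15, differed by -0.01 and 0.11 on the log2 scale. The low values of Mmp2, Adamts1, Adamts5 and Adamts12 in control library 2 coincided with its low fibroblast sum (1890 CPM), and the part of fibroblast content in them was not tested. That sum was mostly Col1a1, Col1a2 and Col3a1 (599, 506 and 724 CPM). Tcf21, of the same list, was at 22.3 CPM in this library and at 18.5 to 31.3 CPM in the others.

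Among the remaining ADAMTSs, Adamts12, which cuts cartilage oligomeric matrix protein, was at 36.2, 21.2 and 40.5 CPM in control, at 41.0, 71.6 and 45.1 CPM in hypoplastic and at 37.2, 46.2 and 48.4 CPM in treated lungs. The lowest hypoplastic library exceeded the highest control library by less than 1 CPM. The log2 fold change was 0.69 (SE 0.267, unadjusted p 0.0287, edgeR adjusted p 0.366) and 0.40 without hypoplastic library 2. Adamts7, which shares this substrate, overlapped between groups (log2 fold change 0.16, SE 0.258, edgeR adjusted p 0.837). The 3 procollagen N-propeptidases, which trim newly made collagen, had log2 fold changes of -0.17 to 0.28 in hypoplastic lungs. Of these, Adamts2 was at 68.1, 60.7 and 79.6 CPM in control, at 61.1, 64.2 and 60.1 CPM in hypoplastic and at 61.2, 52.5 and 54.3 CPM in treated lungs. The 4 other ADAMTSs (Adamts10, Adamts19, Adamts6 and Adamts18) lay between -0.14 and 0.15, and Adamts10 was at 99.7, 78.9 and 79.4 CPM in control against 82.1, 74.4 and 77.5 CPM in hypoplastic lungs.

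Of the 3 ADAMTS-like genes, Adamtsl5 was at 0.276, 0.517 and 0.217 CPM in control and at 0.839, 1.19 and 0.380 CPM in hypoplastic lungs, with 1 hypoplastic library inside the control range (log2 fold change 1.31, SE 0.536, unadjusted p 0.036, edgeR adjusted p 0.379). Adamtsl3 overlapped (log2 fold change 0.04, SE 0.393), and Adamtsl4 was at 9.29 CPM in hypoplastic library 2 and at 3.45 to 4.80 CPM in the other 8 libraries. The group also held Mmp24os, named for the strand opposite Mmp24, and Adam4l1, a gene similar to Adam4. Neither is known to encode a working metalloproteinase, whether the counting used strand or split reads of similar genes is not known, and their log2 fold changes of -0.32 and -0.10 are uncertain for that reason.

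**Figure D4:**
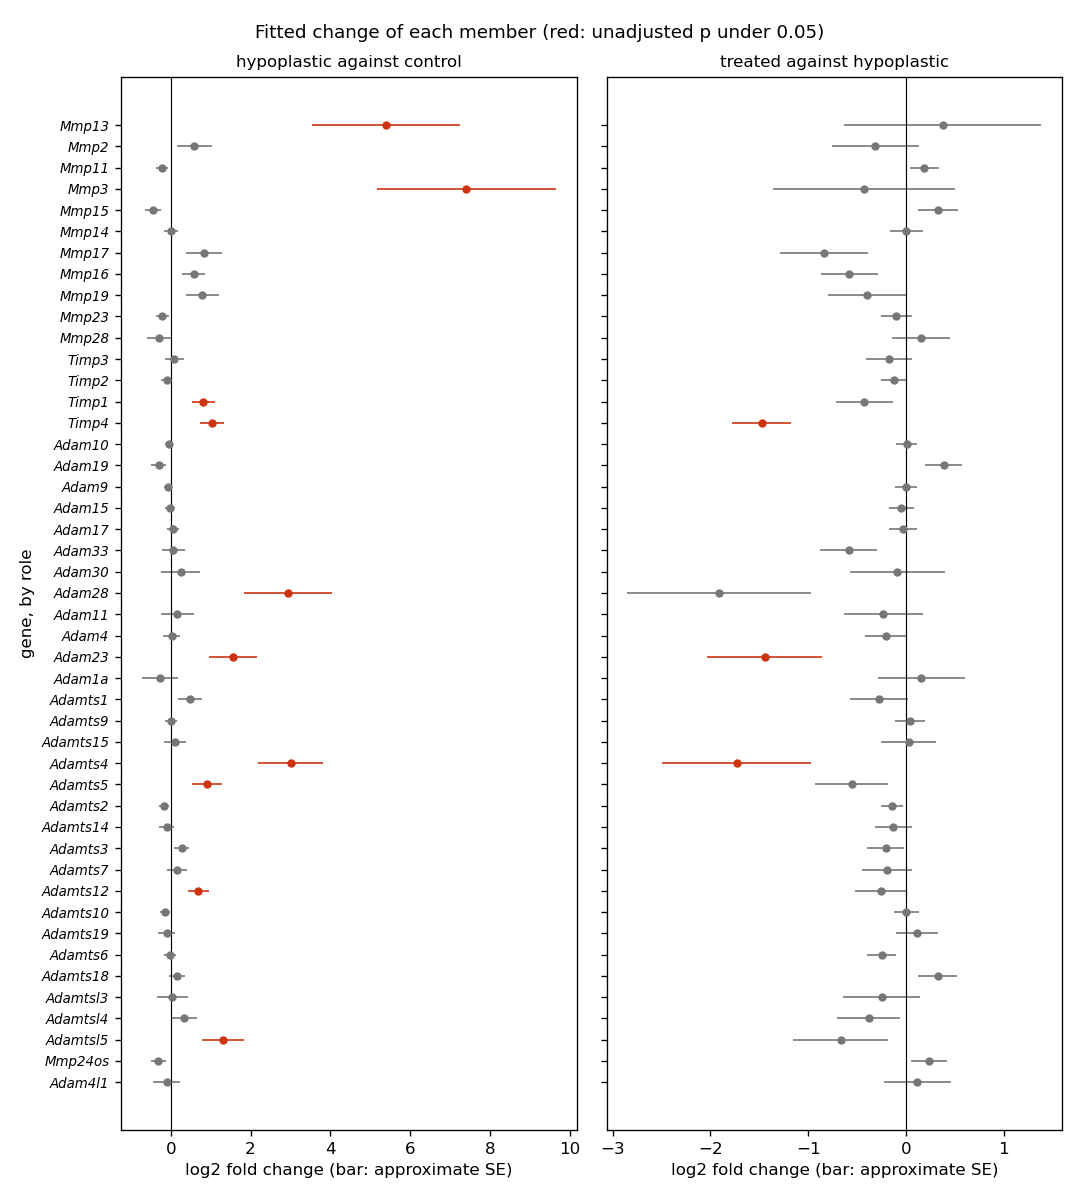
Fitted log2 fold change of each of the 46 members (points, with approximate SE bars) in hypoplastic against control lungs (left) and treated against hypoplastic lungs (right), with separate axes. Red marks an unadjusted p under 0.05: 10 members on the left, all above 0, and 3 on the right, all below 0. No member passed an adjusted p of 0.05.

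The second comparison, of treated with untreated hypoplastic lungs, asks about the effect of the vesicles. edgeR called 0 of 46 members and 0% of all genes tested. At an unadjusted p under 0.05 there were 3 members (6.52%), 0 higher and 3 lower, beside 5.56% of all genes in either direction and 3.56% in the lower direction, so the share was near the background. DESeq2 called 0 members and 0.131% of all genes, and limma voom called 0 members. The median log2 fold change was -0.16 over the members, of which 30 were below 0, and -0.01 over all genes. This comparison shares the hypoplastic libraries with the preceding one, so a value that is high in those libraries alone moves both.

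Timp4 had the smallest p of the members, at -1.48 on the log2 scale (SE 0.303, unadjusted p 0.00074, edgeR adjusted p 0.826), and its adjusted p ran from 0.125 by DESeq2 to 1 over the alternatives. Its means were 1.04 CPM ± 0.173 (SD, n = 3) in untreated and 0.376 CPM ± 0.0462 (SD, n = 3) in treated hypoplastic lungs. The control mean of Timp4 was 0.511 CPM, and its treated mean was under the 0.5 CPM of the level rule. Its mean over the 9 libraries, 0.642 CPM, thus passed the rule partly through the hypoplastic lungs, a group compared here. The unadjusted p stayed at 0.00431 or lower without any single library. Adam23 followed at -1.45 (SE 0.589, unadjusted p 0.0349, edgeR adjusted p 0.896), and at -2.65 without treated library 3. Adamts4 was at -1.73 (SE 0.762, unadjusted p 0.0473, edgeR adjusted p 0.896), and at 0.04 without hypoplastic library 2. Adam19, a sheddase of neuregulin, was higher in treated lungs by 0.39 (SE 0.187, edgeR adjusted p 0.901), at 134, 95.5 and 147 CPM against 77.4, 116 and 93.7 CPM. Adam28 was at 0.184, 0.347 and 0.455 CPM in treated lungs (log2 fold change -1.91, SE 0.943, edgeR adjusted p 0.901), which became 0.34 without hypoplastic library 1.

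The other members with a small p in hypoplasia had log2 fold changes in treated against hypoplastic lungs of -0.43 for Timp1, -0.26 for Adamts12, -0.55 for Adamts5, -0.67 for Adamtsl5, -0.43 for Mmp3 and 0.38 for Mmp13, each with an edgeR adjusted p of 0.931 or higher. Treated and hypoplastic ranges overlapped for all of these. Non-overlapping ranges occurred for 2 members, Timp4 and Adamts6, both lower in treated lungs (4.35% of members, beside 4.74% of all genes lower and 5.07% higher). Adamts6, which acts on fibrillin microfibrils, was at 12.2, 15.4 and 15.6 CPM in treated and at 17.1, 15.8 and 18.4 CPM in hypoplastic lungs.

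The last comparison sets treated beside control lungs and shares libraries with both others. edgeR called 0 of 46 members and 0% of all genes tested. DESeq2 called 0 members and 0.108% of all genes, and limma voom called 0 members. At an unadjusted p under 0.05 there were 4 members, 3 higher (Adamts18, Mmp13 and Mmp3) and 1 lower (Adamts2), which is 8.7% beside 4.17% of all genes (1.67% higher and 2.5% lower), and 2 of the 4 had a control mean under 0.5 CPM. Among the 42 members with a control mean of at least 0.5 CPM, 2 (4.76%) passed, 1 higher and 1 lower, a share near that of all genes. Mmp13 was 5.77 higher on the log2 scale (SE 1.79, pooled ratio 60, 95% interval 30.2 to 140, edgeR adjusted p 0.998). Mmp3 had a pooled ratio of 177 (206 against 1 counts, 95% interval 31.3 to 7000, edgeR adjusted p 0.998). Treated library 3 was near 0 for each, and 2 of 3 treated libraries were high. Adamts2, which removes the N-propeptide of fibrillar procollagens, was at -0.31 on the log2 scale (SE 0.117, edgeR adjusted p 0.998), and 1 of the 3 treated libraries lay inside the control range. Treated and control ranges did not overlap for Adamts4 and Mmp3, which were higher, and Adam33, a mesenchymal ADAM, which was lower. These are 4.35% and 2.17% of the members, beside 4.37% of all genes higher and 5.02% lower, so neither share exceeded the background. Mmp3 was among the members with a control mean under 0.5 CPM.

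Other genes of matrix proteolysis were counted from lists, none of which held a gene called by edgeR in hypoplastic against control lungs. The counts at an unadjusted p under 0.05 stand beside 6.67% of all genes higher and 5.69% lower (12.4% in either direction). In the plasminogen system, 3 of 9 tested genes were higher at an unadjusted p under 0.05 and 0 lower. Among them Serpine2, an inhibitor of thrombin and plasminogen activators, differed by 0.52 (SE 0.215, edgeR adjusted p 0.380).

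Of 9 cathepsin and cystatin genes, 4 were higher and 1 lower at this threshold, beside 6.67% and 5.69% of all genes. The lower one was Ctsh, a protease that processes surfactant protein precursors, at 195, 535 and 313 CPM in control and at 154, 162 and 175 CPM in hypoplastic lungs (log2 fold change -1.09, SE 0.293, edgeR adjusted p 0.317). Ctsk, a collagen-cutting cathepsin, was at 12.6 CPM in hypoplastic library 2 and at 0.396 to 2.12 CPM in the other 8 (log2 fold change 2.43, SE 0.856, edgeR adjusted p 0.341). Activators and regulators of metalloproteinases were near the background of 12.4%: of 14 genes, 1 was higher, Itgb8, a subunit of an integrin that activates TGF-beta (0.68, edgeR adjusted p 0.404), and 1 lower, Rhbdf1, a partner that brings ADAM17 to the cell surface (-0.23, edgeR adjusted p 0.359).

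Of 14 matrix substrates, 5 were higher and 0 lower, beside 6.67% and 5.69% of all genes. They included Dcn, the collagen-binding proteoglycan decorin, at 13.3, 147 and 1.97 CPM in hypoplastic and at 1.84 to 3.36 CPM in control lungs, and Thbs2, a matrix protein that clears Mmp2, at 66.0, 129 and 23.2 CPM against 22.3, 5.51 and 29.9 CPM. Of 26 shed ligands and receptors, 3 were higher and 1 lower, a share near the 12.4% of all genes. Tnf, the substrate for which ADAM17 is named, was at 1.65, 2.99 and 2.10 CPM in hypoplastic and at 0.981, 0.696 and 1.19 CPM in control lungs (log2 fold change 1.21, SE 0.345, edgeR adjusted p 0.317), and Cdh1, the epithelial cadherin cut by ADAM10, differed by -0.25 (SE 0.0998, edgeR adjusted p 0.369). Of 8 other matrix metalloproteases 1 was higher, Ece2, an endothelin-converting enzyme (0.86, edgeR adjusted p 0.331), and Mme, neprilysin, was at -0.66 (edgeR adjusted p 0.429).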

How the data were processed

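Total RNA of 9 fetal lungs was sequenced after ribosomal RNA depletion, per the labels' protocols, which put the extraction of all libraries on 1 day. The authors deposited 1 table of estimated counts per gene, of which 19.5% of the nonzero values are whole; build rn7 and DESeq2 are named, without a role, per the submitters' processing notes. The aligner, the counter and how reads shared by genes were handled were not stated in those notes.

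Counts were rounded and tested with edgeR 4.0.16 (glmQLFit, legacy=FALSE, and glmQLFTest, R 4.3.3) with TMM factors, filterByExpr by group (12966 of 17465 genes kept) and 1 fit of all 9 libraries, which leaves 6 residual degrees of freedom. Adjusted p-values are Benjamini-Hochberg values over all genes tested, and SEs are approximate (fold change over the root of F). CPM use TMM-scaled totals; CPM of different genes are not per length. Symbols came from a RefSeq table (GRCr8), which matched 17314 of the IDs (99.1%); promoters are RefSeq GRCr8. The code was tested on simulated data. The design had assumed whole counts. Sex was inferred from the levels of Xist and Ddx3y, by which male lungs were 2, 1 and 1 of 3 in the control, hypoplastic and treated groups. Intervals cover counting error only.

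The members and lists were chosen with earlier results of these data known. Of 71 genes in the role lists, 60 had a row; the others were not analysed here. Named with values were Timp1 to Timp4, Mmp2, Mmp14, Adam10 and Adam17, the 10, 5 and 3 members of smallest p in the 3 comparisons, the member of highest CPM per role list, and up to 2 genes per pathway list (1 of these is not reported here); further members named with values (such as Mmp17, Adamts6 and Adamtsl4) and Mmp10, Mmp12 and Adamts16 were added after values were seen. Alternatives were DESeq2 1.42.0, limma 3.58.1 (voom), RLE factors, 2 filters, removal of ribosomal and 7SL rows, the replicate number as a block, sex as a covariate, only the 6 libraries compared, each library left out, 2 other member rules and an adjusted p under 0.1.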

Additional observations from a re-analysis of the deposited data

How the results depend on the processing

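Under all alternatives edgeR called 0 members in each comparison, and DESeq2 called 1 (Mmp3) in hypoplastic against control lungs and limma voom 0; DESeq2 gave 1 member no adjusted p. In hypoplastic against control lungs the 10 members with an unadjusted p under 0.05 became 6 by limma voom, with the sex covariate, and with a member rule of at least 1 CPM (fewer members), and 7 to 11 without single libraries. The cause of the first 2 was not tested, and their shares of all genes are not given here. Without single libraries, 6.49% to 12.9% of all genes were at this threshold in that comparison. In treated against hypoplastic lungs the 3 members became 1 to 6 without single libraries: leaving out hypoplastic library 2 gave 5 (3 higher and 2 lower), leaving out hypoplastic library 3 gave 6 and leaving out treated library 1 gave 1. The shares of all genes in these fits were 5.42%, 6.09% and 2.85%, in the same order. In treated against control lungs the 4 became 2 to 6, the lowest when treated library 2 and the highest when hypoplastic library 2 was left out. All genes at this threshold were 3.63% and 4.77% in those fits.

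The replicate numbers are not said to pair lungs, and deviations of same-numbered libraries correlated at -0.368 to 0.312, above 0.1 in 3 of 9 pairs. With the replicate block the member counts at an unadjusted p under 0.05 were 6 in hypoplastic against control and 1 in treated against hypoplastic lungs. The shares of all genes with the block are not given here.

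Of 41 fold changes recomputed, 28 kept their sign in every alternative in which the gene was tested. The following did not, and the cause was not tested. In hypoplastic against control lungs Mmp14 was at -0.023 by limma voom, -0.00085 without a filter, -0.0061 with the replicate block and -0.0016 with the sex covariate, and Adamtsl3 at -0.069 with the sex covariate. With 1 library left out the log2 values ran from -0.21 to 0.12 for Mmp14, -0.045 to 0.35 for Timp3, -0.10 to 0.016 for Adam10, -0.078 to 0.16 for Adam17, -0.21 to 0.45 for Adam11, -0.40 to 0.28 for Adamtsl3 and -0.083 to 0.35 for Adamts7. In treated against hypoplastic lungs Mmp3 was at 0.94 by limma voom, and with 1 library left out the values ran from -0.99 to 0.61 for Mmp3, -0.39 to 2.30 for Mmp13, -2.18 to 0.044 for Adamts4, -0.65 to 0.0303 for Timp1, -2.39 to 0.34 for Adam28 and -0.41 to 0.0298 for Adamts12.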

Other observations

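Among the genes that matched the symbols but fell under the level rule, Adamts16, noted after its values were seen, had a smaller p in hypoplastic against control lungs than any member. It was at 0.0153, 0.0357 and 0.0407 CPM in control lungs (6 counts in all), at 0.290, 1.26 and 0.0905 CPM in hypoplastic lungs and at 0.0263, 0.0717 and 0.206 CPM in treated lungs. The hypoplastic and control ranges did not overlap, with an unadjusted p of 0.00256 and an edgeR adjusted p of 0.317. Like Adamts4 and Mmp12, it was highest in hypoplastic library 2.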
